A study of Rattus norvegicus with 60 samples.

Results

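Expression of 41 genes that mark T cells, their subsets and their activation was examined in haemophilia A rats, which lack working factor VIII and clot poorly. The genes were a named list of T cell receptor components, surface receptors, transcription factors, checkpoint receptors, cytokines and homing receptors. A gene was measured by the probe set annotated with its symbol alone, and by the one with the highest mean where there were several. Of the 41 genes, 38 had such a probe set, 1 each, among 18166 genes measured in this way. Themis, Il2rb and Icos had no probe set listed under their symbol alone and are not described further. The 38 genes fell into 6 roles: the T cell receptor complex and its signalling (10), accessory surface receptors (7), lineage and subset transcription factors (6), cytokine receptors (2), activation and checkpoint receptors (8), and cytokines with homing receptors (5).

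The study took tissue from inside the knee, and the popliteal lymph node behind it, from 20 haemophilia A rats, all killed 24 h after the procedure. In 11 rats a bleed had been induced in 1 knee, which gave 11 bled knees, 11 contralateral knees and the 11 nodes of each side. The other 9 rats had a sham procedure and gave 7 knees and 9 nodes, 1 of each per rat at most. No rat with normal clotting was among the groups. Every bled knee and its node came from the left and every contralateral or sham sample from the right, so the effects of the bleed and of the side cannot be told apart. Rats are named here K1 to K11 (bled) and C1 to C9 (sham). The labels describe the knee samples as synovial tissue and call the bled knee injured, and what the procedure did and what the escaped blood did cannot be told apart. RNA of each sample was measured on 1 Affymetrix rat array, and the values below are log2 expression values as deposited, where a difference of 1 is a 2-fold change.

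T cells recognise antigen through a receptor whose signal is carried by the CD3 chains and the zeta chain and relayed inside the cell by the kinases Lck and Zap70 and the adaptor Lat. The coreceptors CD4 and CD8 divide T cells into helper and cytotoxic kinds, and costimulatory receptors such as CD28 and brakes such as CTLA-4 set how strongly the cell responds. Several of these molecules are not limited to T cells: rat macrophages carry CD4, rat NK cells carry CD8 and CD2, and myeloid cells carry the product of Havcr2. In whole tissue such as this, fewer cells of a type and less RNA per cell cannot be told apart.

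Array medians lay between 5.64 and 5.94. The sham knee of rat C5 correlated at 0.965 with the mean of its group, against 0.984 for the next array, and the sham nodes of rats C9 and C2 correlated at 0.966 and 0.984, against 0.993 for the next. Calls that were lost without these arrays are named below, and most other differences are given with all arrays only. The labelled tissues were checked against the T cell genes themselves, since a lymph node is rich in T cells. Of the 38 genes, 34 were higher in sham nodes than in sham knees by limma's moderated test with Benjamini-Hochberg adjustment over all 36685 probe sets (adjusted p under 0.05), and none was lower. The median difference was 3.31, against −0.03 over all probe sets, of which 52.5% were called, 28.3% higher and 24.3% lower. Cd3g, the gamma chain of CD3, had the largest difference of the 38, 5.95 ± 0.19 SE (adjusted p = 4.36e-35, 9 nodes and 7 knees). Ifng, Il2, Il17a and Havcr2 were not called between the sham tissues, with differences of −0.08, 0.12, −0.21 and 0.28. Without the arrays of C5, C2 and C9, 35 genes were higher in sham nodes and 1, Il17a, was lower (−0.24, adjusted p = 0.0479).

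In the bled knees, most T cell identity genes were higher than in the contralateral knees, whereas the cytokine genes Ifng, Il2 and Il17a were not called. The means of these cytokine genes lay below the median of every array in every group of knees and nodes, near background. The question was whether a knee with a bleed differs from the other knee of the same rat. Of the 38 genes, 28 rose and 1, Cd4, fell. Of all probe sets 34.7% were called, with 19.5% of all higher and 15.2% of all lower. The median difference of the 38 genes was 0.70, against 0.00 over all probe sets. The genes were chosen with earlier results of these data known, so this contrast and those below are not an independent test. At least a 2-fold increase was called in 10 of the 38 genes, a change called in 3.27% of all probe sets. In 21 genes the bled knee was the higher one in all 11 rats, and Cd4 was lower in all 11, against 13.2% of all probe sets higher and 9.85% lower in every rat. The values did not overlap between the groups in 11 genes that were higher and in Cd4, against 7.9% of all probe sets in the higher and 5.61% in the lower direction. In 11 of the 28 genes that rose, the contralateral mean was under all array medians, a range in which background signal compresses a fold.

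**Figure D1:**
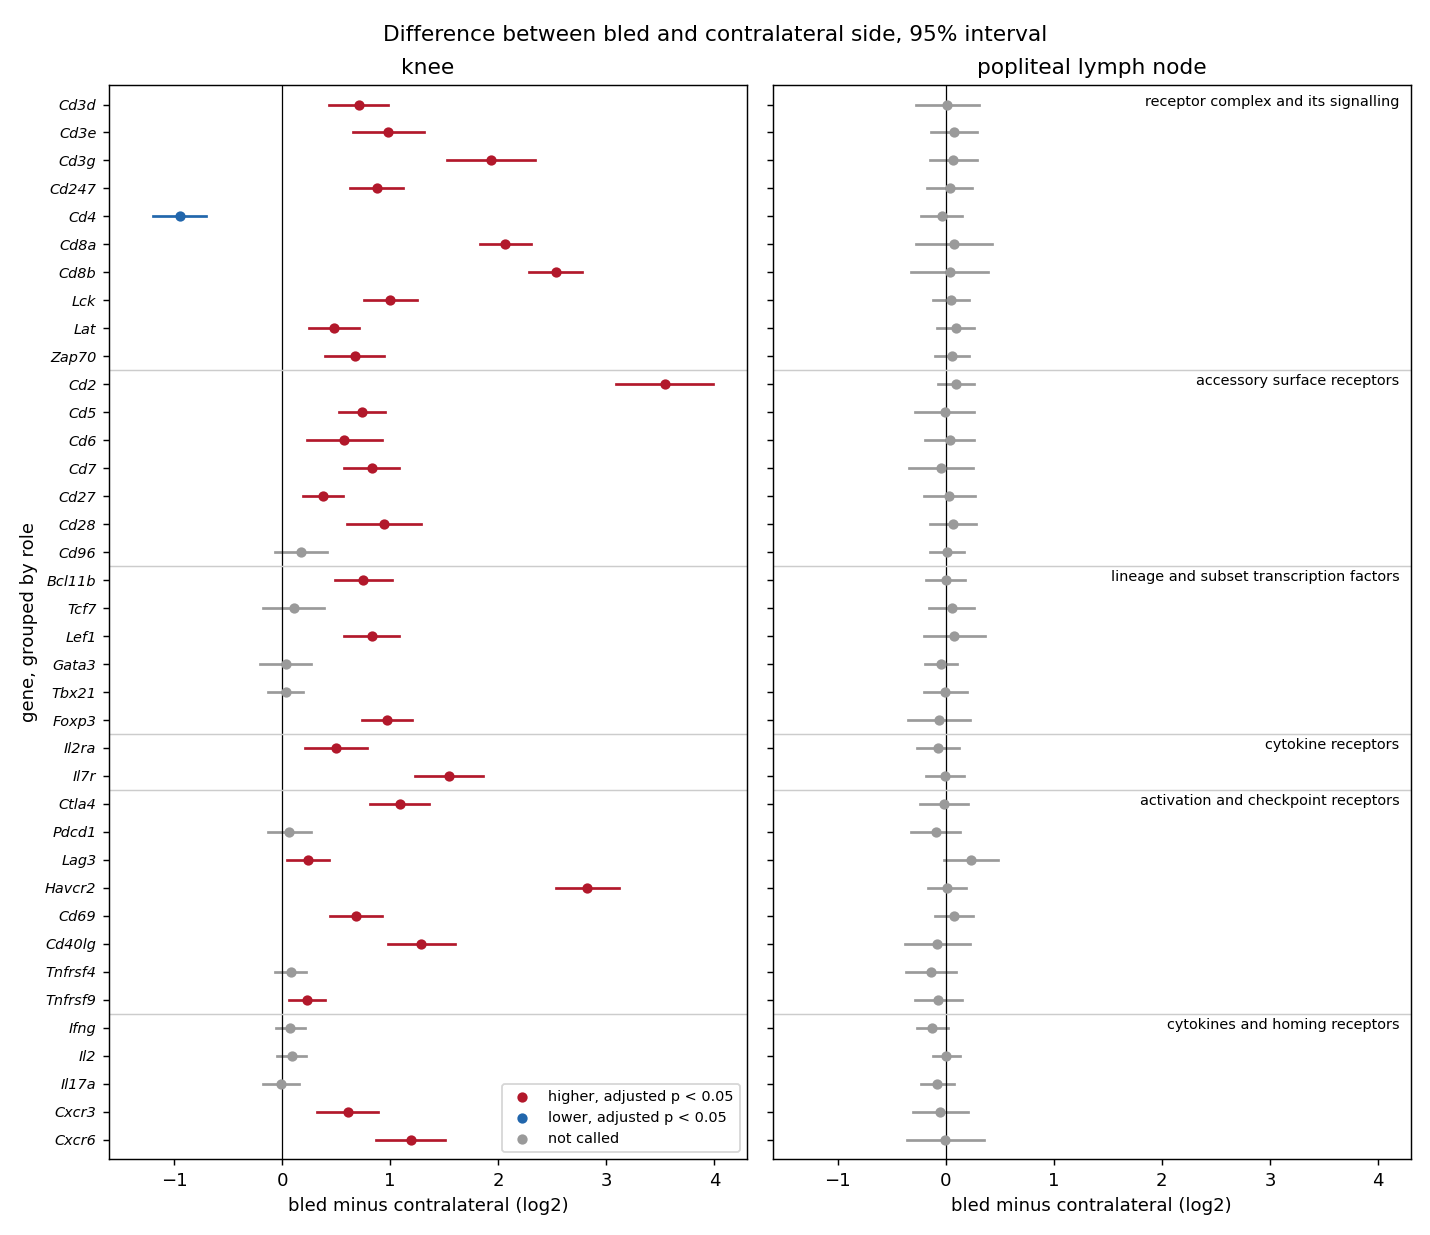
Difference between the bled and the contralateral side in log2 units (x axis) for the 38 T cell genes, grouped by role (y axis), in the knee (left) and the popliteal lymph node (right). Points are differences of group means and lines their 95% intervals, 11 arrays a group; 28 genes are called higher and 1 lower in the knee, and none in the node.

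The promoters of the 4 genes with the largest increases that have a RefSeq promoter in the table used, Cd2, Havcr2, Cd8a and Cd3g, are printed here beside that of Tcf7, whose gene was not called, so that regulatory sequence can be read beside the expression values. Each runs 5′ to 3′ in the gene's direction from 250 bases before to 50 bases after the annotated start, taken from RefSeq on GRCr8. Capitals mark matches on either strand to the core letters of motifs of 6 families of factors known from T cells, ETS, GATA, RUNX, E-box, AP-1 and TCF/LEF, whose letters are spelled out after the sequences. No match overlaps another in these windows. The regions are chr2:191412610-191412909 on the minus strand for Cd2, chr10:31383675-31383974 on the plus strand for Havcr2, chr4:104923866-104924165 on the plus strand for Cd8a, chr8:54183869-54184168 on the minus strand for Cd3g, and chr10:36954230-36954529 on the minus strand for Tcf7.
Cd2: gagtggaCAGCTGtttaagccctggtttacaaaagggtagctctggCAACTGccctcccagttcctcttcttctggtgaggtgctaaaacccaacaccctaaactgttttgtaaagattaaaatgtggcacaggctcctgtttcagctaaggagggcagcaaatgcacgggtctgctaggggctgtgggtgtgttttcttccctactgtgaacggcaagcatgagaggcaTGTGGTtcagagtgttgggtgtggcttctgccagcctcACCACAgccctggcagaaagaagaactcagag
Havcr2: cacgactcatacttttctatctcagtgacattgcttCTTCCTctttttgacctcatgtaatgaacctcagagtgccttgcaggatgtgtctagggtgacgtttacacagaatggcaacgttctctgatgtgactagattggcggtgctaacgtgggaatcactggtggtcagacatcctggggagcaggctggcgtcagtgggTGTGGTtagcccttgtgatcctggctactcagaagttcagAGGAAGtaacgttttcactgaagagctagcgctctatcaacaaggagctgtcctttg
Cd8a: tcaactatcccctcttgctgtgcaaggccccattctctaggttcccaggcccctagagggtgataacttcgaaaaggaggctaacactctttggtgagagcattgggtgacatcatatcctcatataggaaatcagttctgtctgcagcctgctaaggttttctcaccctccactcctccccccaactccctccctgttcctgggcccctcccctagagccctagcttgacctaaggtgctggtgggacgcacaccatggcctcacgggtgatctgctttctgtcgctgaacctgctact
Cd3g: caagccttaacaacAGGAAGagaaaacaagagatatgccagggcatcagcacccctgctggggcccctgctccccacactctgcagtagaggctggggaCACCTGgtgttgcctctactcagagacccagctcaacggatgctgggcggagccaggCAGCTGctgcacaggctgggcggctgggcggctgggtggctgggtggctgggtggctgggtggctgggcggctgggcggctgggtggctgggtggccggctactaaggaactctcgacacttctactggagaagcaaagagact
Tcf7: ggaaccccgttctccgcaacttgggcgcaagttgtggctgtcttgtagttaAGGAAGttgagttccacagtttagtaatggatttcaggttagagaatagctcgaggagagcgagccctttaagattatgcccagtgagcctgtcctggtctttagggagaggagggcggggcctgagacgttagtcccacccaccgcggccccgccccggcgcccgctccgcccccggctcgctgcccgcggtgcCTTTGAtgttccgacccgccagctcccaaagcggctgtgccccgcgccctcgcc
The Cd2 window holds 2 RUNX and 2 E-box matches, the Havcr2 window 2 ETS and 1 RUNX match, the Cd3g window 1 ETS and 2 E-box matches, and the Tcf7 window 1 ETS and 1 TCF/LEF match. None of the searched letters occurs in the Cd8a window.

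Promoters were found in the table for 30 of the 38 genes, 21 of the 28 that rose in the bled knee and all 9 that were not called. Both strands were searched. For the ETS family the letters AGGAAG occurred in 15 of these 21 and in 2 of the 9 promoters, against 34.5% of all 33469 promoters in the table. The E-box letters CAGNTG, bound by E proteins, occurred in 16 of the 21 and 6 of the 9, against 50.2% of all. The RUNX letters TGTGGT occurred in 6 of the 21 and 2 of the 9 promoters, against 17.3% of all promoters. Those of TCF/LEF factors, CTTTGA, occurred in 5 of the 21 and 1 of the 9 promoters, against 16.1% of all promoters. The AP-1 letters TGANTCA occurred in 2 of the 21 and 0 of the 9 promoters, against 7.33% of all promoters. Those of GATA factors, AGATAA, occurred in 2 of the 21 and 0 of the 9 promoters, against 11.6% of all promoters. These matches describe the printed windows and are not evidence that a factor binds there.

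Within the receptor complex, 9 of 10 genes rose in the bled knee and Cd4 fell, against 19.5% of all probe sets higher and 15.2% lower. The same shares apply to the other counts of this comparison given below. Cd8b, the beta chain of the CD8 coreceptor, read 7.97 at the lowest, 8.41 at the median and 8.96 at the highest in bled knees, 5.44, 5.91 and 6.47 in contralateral knees, and 5.24, 5.50 and 5.98 in sham knees. No bled knee overlapped with a contralateral or sham knee. The difference between the bled and contralateral knees was 2.53 ± 0.12 SE, or 5.78-fold (adjusted p = 2.75e-16). Cd8a, the alpha chain of the same coreceptor, read 7.78, 8.18 and 8.59 in bled knees, 5.53, 6.20 and 6.68 in contralateral knees and 5.11, 5.53 and 5.62 in sham knees. Here too the bled knees stood clear of both other groups, and the contralateral knees lay mostly above the sham knees. The side difference was 2.06 ± 0.12, or 4.18-fold (adjusted p = 4.84e-15). Cd3g read 6.45, 6.81 and 7.49 in bled knees, 4.35, 4.74 and 6.47 in contralateral knees and 3.95, 4.60 and 5.41 in sham knees. Its bled knees overlapped with the contralateral knees only at the array of rat K10, the highest of that group, and the difference was 1.93 ± 0.20, or 3.82-fold (adjusted p = 1.65e-09). Lck, the kinase that starts receptor signalling, read 6.73, 7.12 and 7.69 in bled knees, 5.68, 6.09 and 6.64 in contralateral knees and 5.45, 5.85 and 6.39 in sham knees. These groups did not overlap, and the difference was 1.00 ± 0.12 (adjusted p = 3.18e-08).

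Cd3e, the epsilon chain of CD3 and the usual marker of all T cells, read 6.89, 7.26 and 7.86 in bled knees, 5.56, 6.42 and 7.02 in contralateral knees and 5.38, 6.07 and 6.97 in sham knees. The bled group met the contralateral group only at K10 and the sham group only at C5. The difference from the contralateral knees was 0.98 ± 0.16, or 1.97-fold (adjusted p = 7.29e-06). Cd247, which encodes the zeta chain, rose by 0.88, Cd3d, the delta chain of CD3, by 0.71, the kinase gene Zap70 by 0.67 and the adaptor gene Lat by 0.48.

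Cd4, the coreceptor of helper T cells, moved the other way. It read 10.47, 11.33 and 11.82 in bled knees, 11.98, 12.16 and 12.50 in contralateral knees and 11.60, 12.04 and 12.30 in sham knees. Every bled knee lay below every contralateral knee, and the lowest sham knee lay within the bled range. The difference was −0.95 ± 0.12, or 1.93-fold lower (adjusted p = 1.04e-07). The decrease ranged over the 11 rats from a difference of −0.45 to one of −1.76. Cd4 averaged 12.40 ± 0.39 in sham nodes (SD, n = 9) and 12.03 ± 0.23 in sham knees (SD, n = 7), a difference of 0.37 ± 0.13 SE (adjusted p = 0.0131). With quantile normalization over all arrays the difference was 0.24 and not called (adjusted p = 0.111), and without the arrays of C5, C2 and C9 it was 0.50 (adjusted p = 0.000392). Rat macrophages carry CD4 as well, and in the same comparison 9 of 12 macrophage and monocyte genes rose and 1, Adgre1, fell (−0.75 ± 0.17; named after its value was seen). Whether macrophage RNA had a part in the Cd4 values was not tested.

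**Figure D2:**
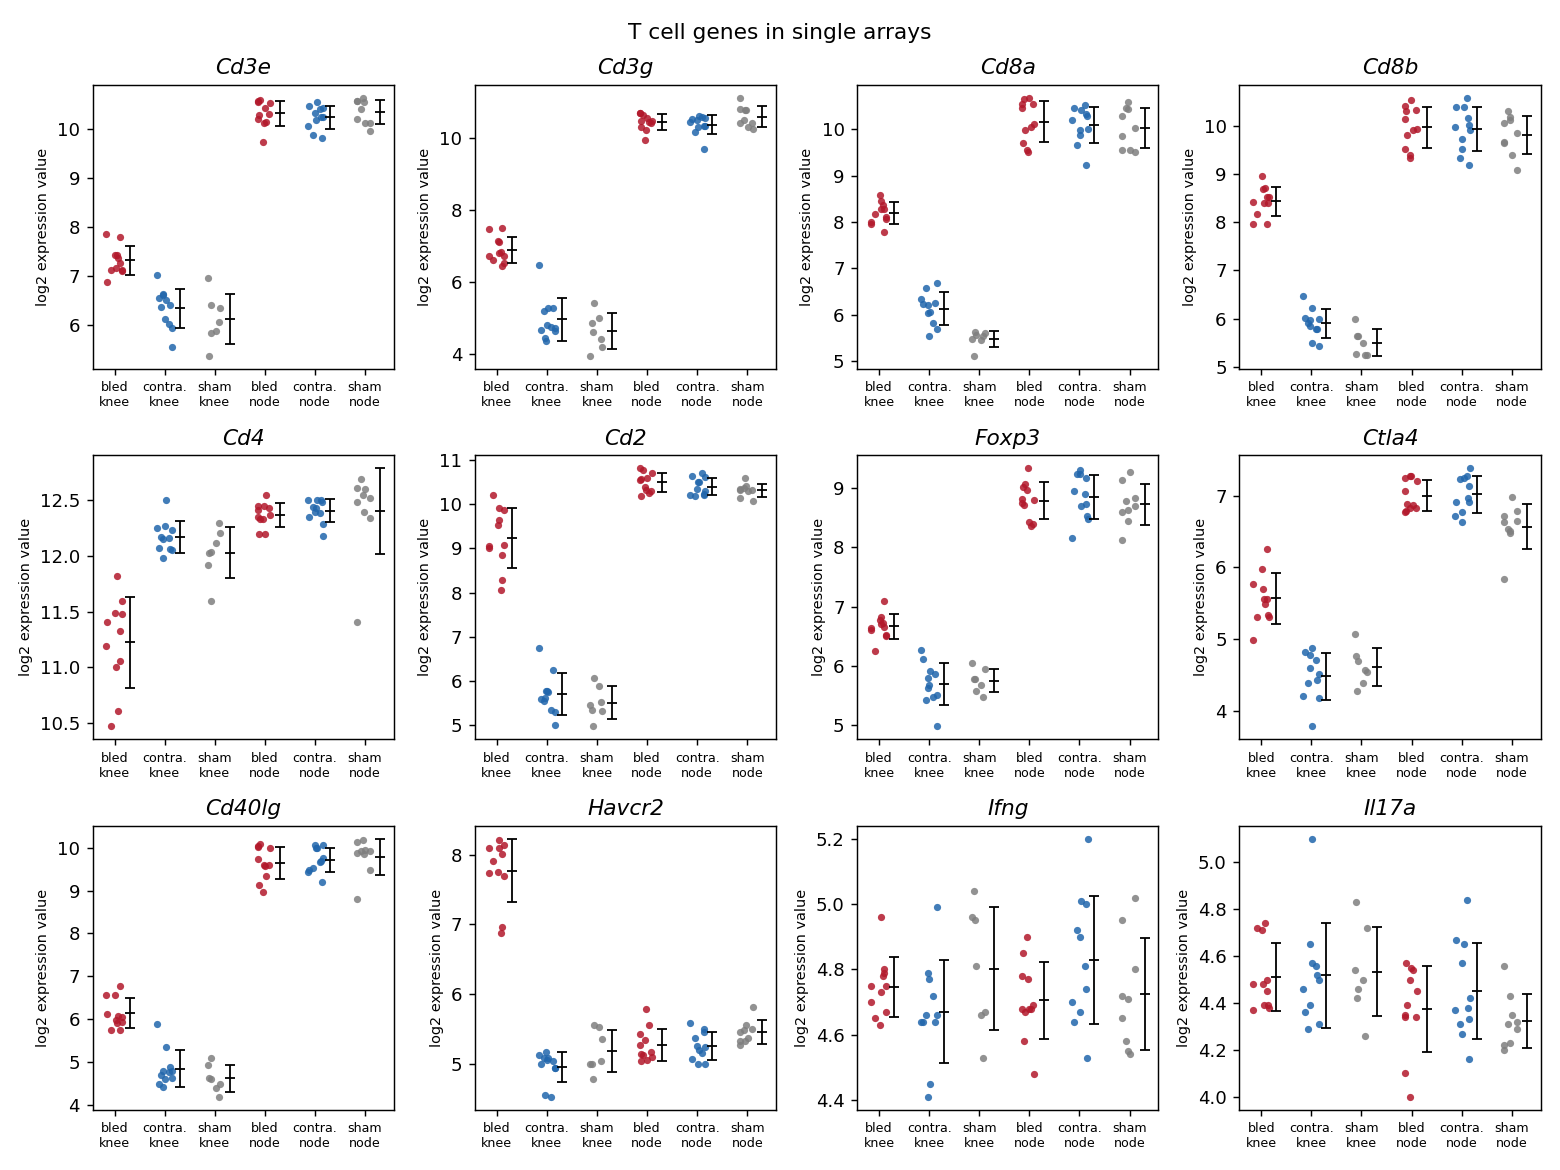
Log2 expression values (y axis) of 12 T cell genes in single arrays, with bled, contralateral and sham knees on the left and the nodes in the same order on the right of each panel; bars give the mean and SD. Bled knees stand above the other knees for Cd8a, Cd8b, Cd2 and Havcr2, stand below the contralateral knees for Cd4, and intermix with both other groups for Ifng and Il17a.

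Of the 7 accessory surface receptors, 6 rose. Cd2, an adhesion receptor of T cells and NK cells, had the largest increase among the 38 genes. It read 8.06, 9.09 and 10.21 in bled knees, 4.98, 5.61 and 6.75 in contralateral knees and 4.96, 5.45 and 6.05 in sham knees. No bled knee came within the range of the other knees, and the bled group itself spread over more than 2 log2 units. The difference was 3.54 ± 0.22 (adjusted p = 3.69e-14) and ranged over the 11 rats from 2.34 to 4.92. Cd28, the main costimulatory receptor, read 5.94, 6.56 and 7.39 in bled knees, 4.57, 5.79 and 6.31 in contralateral knees and 4.94, 5.05 and 5.46 in sham knees. The bled and contralateral values overlapped, the bled and sham values did not, and the side difference was 0.95 ± 0.17 (adjusted p = 2.18e-05). Cd7, an early T cell and NK cell surface protein, read 7.89, 8.31 and 8.89 in bled knees, 7.20, 7.45 and 7.96 in contralateral knees and 6.64, 6.97 and 7.45 in sham knees. The bled and contralateral ranges overlapped slightly, the bled and sham ranges did not, and the difference was 0.83 ± 0.12 (adjusted p = 1.43e-06). Cd5, a receptor that dampens antigen receptor signals, read 7.09, 7.19 and 7.70 in bled knees, 6.05, 6.55 and 6.92 in contralateral knees and 6.31, 6.74 and 7.31 in sham knees. Its bled knees lay above every contralateral knee but overlapped with the sham knees at C5, and the difference was 0.74 ± 0.10 (adjusted p = 5.07e-07).

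Cd6, a relative of Cd5, rose by 0.58 ± 0.17 (adjusted p = 0.00643). The bled knee of rat K3 read 8.21 for Cd6, far above the median of 6.40 of its group, and K3 did not stand out in this way for Cd3e, where it was the lowest. Cd27, a costimulatory receptor of the tumour necrosis factor receptor family, rose by 0.38. Cd96, an adhesion receptor of T cells and NK cells, had a difference of 0.18 (adjusted p = 0.296, 95% interval −0.07 to 0.42) and was not called. Its means lay below the median of every array in bled, contralateral and sham knees, where background signal compresses a fold.

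The transcription factors divided: 3 of 6 rose and 3 were not called. Foxp3, the factor that defines regulatory T cells, read 6.25, 6.65 and 7.10 in bled knees, 4.98, 5.67 and 6.27 in contralateral knees and 5.47, 5.78 and 6.04 in sham knees. Only the contralateral knee of K10 reached the bled range, and no sham knee did. The difference was 0.97 ± 0.11, or 1.96-fold (adjusted p = 2.48e-08). Lef1, a partner of beta-catenin in early and resting T cells, read 5.58, 6.01 and 6.63 in bled knees, 4.96, 5.18 and 5.57 in contralateral knees and 4.77, 5.24 and 5.86 in sham knees. The lowest bled knee and the highest contralateral knee were 0.01 apart, C5 of the sham group reached into the bled range, and the difference was 0.83 ± 0.12 (adjusted p = 1.79e-06). Bcl11b, needed for commitment to the T cell lineage, read 5.62, 6.02 and 6.69 in bled knees, 4.67, 5.38 and 5.68 in contralateral knees and 4.50, 5.22 and 5.40 in sham knees. The bled knees met the contralateral knees only at K10, and the difference was 0.75 ± 0.13 (adjusted p = 1.55e-05).

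Tcf7, which acts beside Lef1, read 7.42, 7.80 and 8.55 in bled knees, 7.31, 7.74 and 8.27 in contralateral knees and 6.72, 7.51 and 7.77 in sham knees. These 3 ranges overlapped widely, and the difference between bled and contralateral knees was 0.11 (adjusted p = 0.637, 95% interval −0.18 to 0.39). Gata3, the factor of type 2 helper cells, had a difference of 0.03 (95% interval −0.20 to 0.27). Tbx21, which encodes T-bet, the factor of type 1 helper and cytotoxic cells, also differed by 0.03 (95% interval −0.13 to 0.20). These intervals stop short of a 2-fold change, and a missed threshold does not show that the values were equal. The Tbx21 means lay below the median of every array in bled, contralateral and sham knees, where background signal compresses a fold.

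Both cytokine receptor genes rose. Il7r, the receptor chain for the T cell survival factor interleukin 7, read 7.85, 8.35 and 8.95 in bled knees, 6.51, 6.77 and 7.46 in contralateral knees and 6.07, 6.67 and 7.36 in sham knees. The bled knees were clear of both other groups, with a difference of 1.54 ± 0.15, or 2.91-fold (adjusted p = 9.38e-10). Il2ra, the alpha chain of the interleukin 2 receptor, found on activated and regulatory T cells, read 5.83, 6.13 and 6.64 in bled knees, 5.09, 5.59 and 6.56 in contralateral knees and 4.96, 5.13 and 5.36 in sham knees. Its contralateral values spread across most of the bled range, with K10 the highest, and it was higher on the bled side in 8 of 11 rats. The difference was 0.50 ± 0.14 (adjusted p = 0.00434).

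Of the 8 activation and checkpoint receptors, 6 rose. Havcr2, a checkpoint receptor of exhausted T cells that is also made by myeloid cells, read 6.88, 7.91 and 8.21 in bled knees, 4.52, 5.04 and 5.16 in contralateral knees and 4.78, 5.03 and 5.56 in sham knees. All bled knees were more than 1 log2 unit above every other knee, and the difference was 2.83 ± 0.14, or 7.09-fold (adjusted p = 5.52e-16). Cd40lg, the ligand by which helper T cells signal to B cells and macrophages, read 5.74, 6.04 and 6.77 in bled knees, 4.41, 4.75 and 5.89 in contralateral knees and 4.18, 4.59 and 5.08 in sham knees. The bled knees met the contralateral group at K10 alone, and the difference was 1.29 ± 0.15, or 2.44-fold (adjusted p = 2.51e-08). Ctla4, a brake on CD28 signalling that regulatory T cells carry, read 4.99, 5.56 and 6.26 in bled knees, 3.78, 4.51 and 4.87 in contralateral knees and 4.28, 4.56 and 5.07 in sham knees. Bled and contralateral knees did not overlap, and the difference was 1.09 ± 0.13, or 2.13-fold (adjusted p = 5.02e-08). Cd69, an early activation marker that also keeps T cells in tissue, read 5.63, 6.08 and 6.39 in bled knees, 4.72, 5.52 and 5.69 in contralateral knees and 5.00, 5.19 and 5.71 in sham knees. Its groups overlapped slightly at the top of the other knees, and the difference was 0.68 ± 0.12 (adjusted p = 1.46e-05).

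The remaining checkpoint genes moved little or were not called. Tnfrsf9, a costimulatory receptor induced by activation, rose by 0.23 ± 0.08 (adjusted p = 0.0218). Lag3, an inhibitory receptor that binds class II molecules, rose by 0.24 ± 0.10 with adjusted p = 0.0497, just inside the threshold. The Lag3 call was lost in 19 of the 29 fits that left out 1 array (adjusted p 0.0188 to 0.102), namely without contralateral K3 or K5 to K10, bled K1 or K5 to K11, or sham C2, C5, C6 or C9. Pdcd1, the programmed death receptor gene, differed by 0.07 (95% interval −0.13 to 0.26) and Tnfrsf4, another costimulatory receptor gene, by 0.08 (95% interval −0.07 to 0.23), and neither was called.

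Of the cytokines and homing receptors, the 2 homing receptor genes rose and the 3 cytokine genes were not called. Cxcr6, a chemokine receptor of tissue-resident and effector T cells, read 6.42, 6.97 and 7.76 in bled knees, 5.54, 5.79 and 6.28 in contralateral knees and 4.87, 5.51 and 6.17 in sham knees. The bled knees lay above all others, and the difference was 1.19 ± 0.16, or 2.28-fold (adjusted p = 1.96e-07). Cxcr3, the receptor that guides effector T cells to interferon-induced chemokines, read 6.23, 6.68 and 7.32 in bled knees, 5.70, 6.07 and 6.72 in contralateral knees and 5.42, 6.05 and 6.73 in sham knees. The groups overlapped, and the difference was 0.61 ± 0.14 (adjusted p = 0.00059).

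Ifng, the cytokine of type 1 and cytotoxic responses, read 4.63, 4.75 and 4.96 in bled knees, 4.41, 4.66 and 4.99 in contralateral knees and 4.53, 4.81 and 5.04 in sham knees. Its groups coincided almost fully, with a difference of 0.08 ± 0.07 (adjusted p = 0.442). Il17a, the cytokine of type 17 helper cells, read 4.37, 4.48 and 4.74 in bled knees, 4.29, 4.50 and 5.10 in contralateral knees and 4.26, 4.50 and 4.83 in sham knees. Here too the ranges were nested, and the difference was −0.01 ± 0.08 (adjusted p = 0.958). Il2, the growth factor of T cells, differed by 0.09 (adjusted p = 0.358). The means of all 3 cytokine genes lay below the median of every array in each of the 6 groups, nodes included, so at this signal a low transcript level was not separable from background.

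Bled knees were then set against the knees of sham rats, which carry no effect of a bleed elsewhere in the animal. Of the 38 genes 27 rose and 1 fell, where 38.7% of all probe sets were called, 19.9% higher and 18.8% lower. The median difference was 0.77, against −0.05 over all probe sets, and 13 genes were at least 2-fold higher, against 4.03% of probe sets. In 15 genes every bled knee lay above every sham knee, against 9.52% of probe sets. Without the sham knee of C5, 26 rose and 1 fell. This comparison shares its bled arrays with the one above, so the values are given side by side and are not independent. Cd2 was higher by 3.73 ± 0.25 against sham, Cd8b by 2.93 ± 0.14, Cd8a by 2.71 ± 0.13, Havcr2 by 2.60 ± 0.16 and Cd3g by 2.26 ± 0.23. Il7r rose by 1.79, Cxcr6 by 1.53, Cd40lg by 1.52, Cd28 by 1.49 and Cd7 by 1.34, and Il2ra rose by 1.01, where it was 0.50 against the contralateral knee. Cd4 fell by 0.81 on the log2 scale (adjusted p = 1.39e-05). Tcf7 was called against sham (0.48 ± 0.16, adjusted p = 0.0139), but not without the array of C5, where it read its lowest (adjusted p = 0.0559). Lag3 and Tnfrsf9 were not called (differences of 0.16 and 0.12), nor were Cd96, Gata3, Tbx21, Pdcd1, Tnfrsf4, Ifng, Il2 and Il17a.

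**Figure D3:**
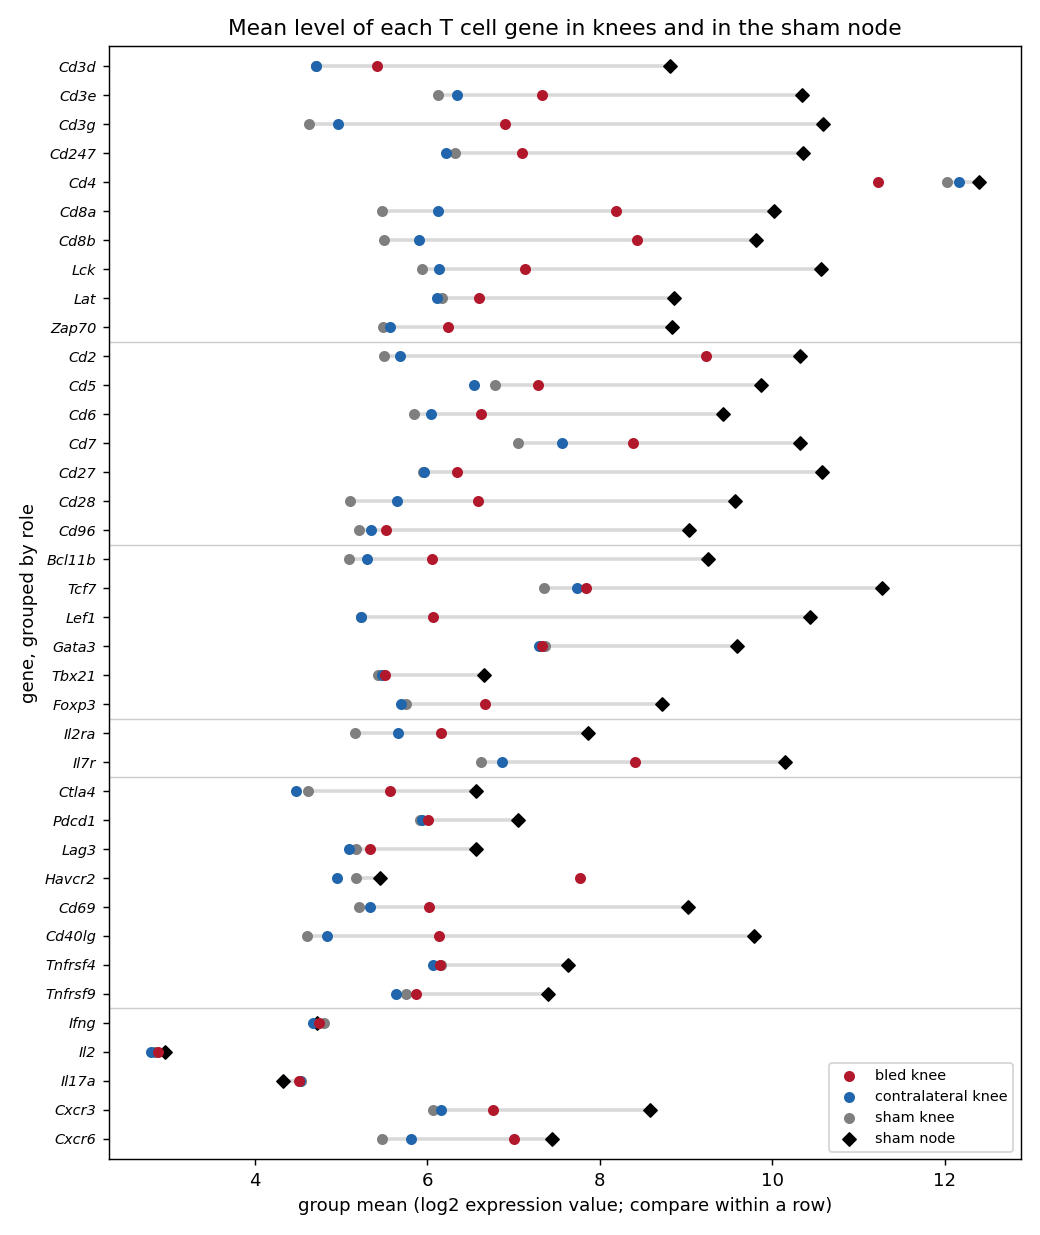
Group means (x axis, log2 expression value) of the 38 T cell genes (y axis, by role) in bled, contralateral and sham knees, with the sham node as a diamond and a grey line joining sham knee and sham node. The bled-knee mean lies between the knee and node levels for most genes, beyond the node for Havcr2, below both for Cd4, and beside the other knees for the 3 cytokine genes.

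Between contralateral and sham knees, which asks whether the knee without a bleed differed from that of a sham rat, Cd8a rose and no other gene of the 38 was called. Over all probe sets 1.82% were called, 0.984% higher and 0.831% lower. Cd8a was higher by 0.65 ± 0.13, or 1.56-fold (adjusted p = 0.00555, n = 11 and 7). Its sham values are tightly packed apart from C9, the lowest at 5.11, and the upper sham values lie inside the contralateral range. Cd8b differed by 0.40 (adjusted p = 0.135), Cd28 by 0.54 (adjusted p = 0.139) and Il2ra by 0.51 (adjusted p = 0.094), none of them called. Cd7 differed by 0.51 ± 0.14 with adjusted p = 0.0505, just outside the threshold. Cd7 was called as well, making 2 genes, when 1 of the arrays contralateral K1, K3, K7 or K11, bled K1, K2, K5 or K6, or sham C2 or C3 was left out. It was called too with rat as a random block (adjusted p = 0.0496). The contralateral values of 13 of the 38 genes were highest in rat K10. How often that contralateral knee was the highest over all probe sets was not counted. In that knee the mean of 9 neutrophil genes was 8.02, against 5.70 to 6.27 in the other 10 contralateral knees, and that of 11 cell cycle genes was 8.20, against 5.87 to 6.50. With K10 left out, a comparison added after the data were seen, 16 of the 38 genes had no overlap between bled and contralateral knees instead of 11, against 8.91% of all probe sets, and the added genes were Cd3e, Cd3g, Bcl11b, Foxp3 and Cd40lg.

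In the lymph nodes none of the 38 genes was called between the bled and the contralateral side, which asked whether the node that drains the bled knee differed from its partner. Of all probe sets 0.0% were called by limma, and with rat as a fixed block none of the 38 genes was called either. Without adjustment (p under 0.05), 0 of the 38 genes and 2.34% of all probe sets passed. The differences ran from −0.14 for Tnfrsf4 to 0.23 for Lag3, with a median of 0.01, against 0.00 over all probe sets. For Cd3e the bled nodes read 9.74, 10.31 and 10.58, the contralateral nodes 9.81, 10.25 and 10.55 and the sham nodes 9.95, 10.40 and 10.63. These ranges were nearly the same, and the 95% interval of the side difference was −0.13 to 0.29. For Foxp3 the interval was −0.35 to 0.22, for Cd8a −0.27 to 0.42 and for Cd2 −0.07 to 0.26.

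Against sham nodes, both sides of the bled rats showed a few called genes. Of the 38 genes, 2 rose in the bled nodes, Lag3 and Ctla4, where 4.26% of all probe sets were called, with 1.91% of all higher and 2.34% of all lower. In the contralateral nodes Ctla4 and Cxcr3 rose and Lat fell, where 5.03% of probe sets were called, 2.22% higher and 2.81% lower. With so few of the 38 genes called, the counts were not read as particular to T cell genes, and both comparisons use the same sham nodes. Ctla4 read 6.77, 6.88 and 7.28 in bled nodes, 6.63, 6.97 and 7.38 in contralateral nodes and 5.84, 6.63 and 6.98 in sham nodes. The upper sham nodes reached into both other groups, and C9 was the lowest sham node. Ctla4 was higher by 0.43 ± 0.11 in bled nodes (adjusted p = 0.0252) and by 0.45 ± 0.11 in contralateral nodes (adjusted p = 0.0195). Lag3 read 6.58, 7.14 and 7.94 in bled nodes, 6.44, 6.85 and 7.28 in contralateral nodes and 6.30, 6.57 and 6.80 in sham nodes. Most bled nodes lay above the sham range, fewer contralateral nodes did, and the difference was 0.55 ± 0.13 for bled nodes (adjusted p = 0.0133) and 0.31 for contralateral nodes (adjusted p = 0.16, not called).

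Cxcr3 read 8.40, 8.93 and 9.54 in bled nodes, 8.61, 9.04 and 9.42 in contralateral nodes and 8.03, 8.67 and 8.89 in sham nodes. The 2 lowest sham nodes were C2 and C9, and the other sham nodes overlapped with both groups. Cxcr3 was higher by 0.45 ± 0.13 in contralateral nodes (adjusted p = 0.0427) and by 0.40 ± 0.13 in bled nodes (adjusted p = 0.0765, not called). Lat read 8.30, 8.62 and 8.92 in bled nodes, 8.32, 8.55 and 8.84 in contralateral nodes and 8.63, 8.85 and 9.36 in sham nodes. C9 was the highest sham node for Lat, and the difference was −0.33 ± 0.09 for contralateral nodes (adjusted p = 0.0268) and −0.24 ± 0.09 for bled nodes (adjusted p = 0.119, not called). Without the sham nodes C2 and C9, none of the 5 calls held: Ctla4 stood at 0.34 in bled nodes (adjusted p = 0.0751) and 0.35 in contralateral nodes (adjusted p = 0.0597), Lag3 at 0.48 (adjusted p = 0.0597), Cxcr3 at 0.30 (adjusted p = 0.203) and Lat at −0.25 (adjusted p = 0.102). Leaving out single arrays, the Cxcr3 call was lost without contralateral K3, K5, K7, K8, K9 or K11 or sham C2, C3, C7 or C9, and the Lat call without contralateral K4 or sham C2. The number called in contralateral nodes was 1 without C2. The mean of 10 adipocyte genes was taken as a sign of fat in a node sample, which was not measured otherwise. It ranged from 6.90 to 9.00 in bled nodes and 8.18 to 8.90 in contralateral nodes. In sham nodes it ran from 6.88 to 8.80 (7.26 in C2 and 7.53 in C9). Of the 10, 3 rose in bled and 5 in contralateral nodes against sham. With that mean as a covariate none of the 38 genes was called in either comparison, while Ctla4 stood at 0.40 in bled (adjusted p = 0.104) and 0.40 in contralateral nodes (adjusted p = 0.247) and Lag3 at 0.49 in bled nodes (adjusted p = 0.0797). Cxcr3 stood at 0.34 (adjusted p = 0.41) and Lat at −0.23 (adjusted p = 0.39) in contralateral nodes, and the part of fat in the calls was not tested further.

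**Figure D4:**
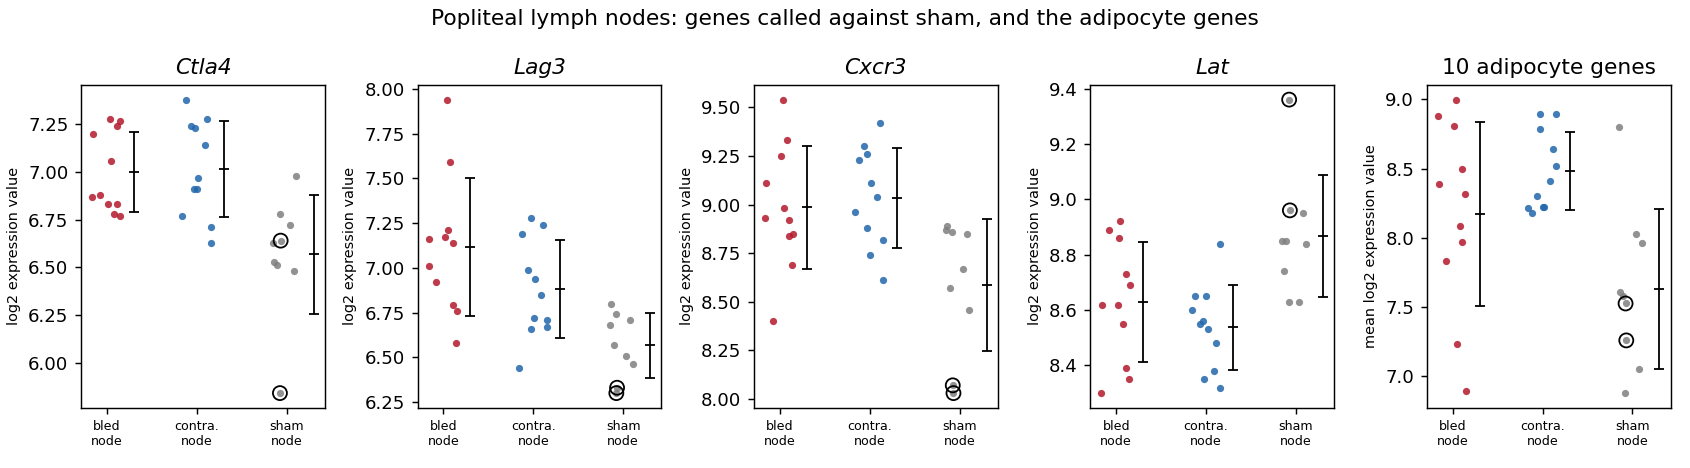
Log2 expression values (y axis) of the 4 T cell genes called against sham in the nodes, and the mean of 10 adipocyte genes, in bled, contralateral and sham nodes; points are arrays, bars the mean and SD, and rings mark the sham nodes C2 and C9. The 2 ringed arrays are the lowest sham nodes for Lag3 and Cxcr3, and C9 is the lowest for Ctla4 and the highest for Lat.

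Whether the side difference itself differed between tissues was tested with all 60 arrays. The knee minus node value was called positive for 25 of the 38 genes and negative for 1, Cd4. Of all probe sets 27.8% were called, 15.5% higher and 12.4% lower. The median over the 38 genes was 0.68. Havcr2 had a knee minus node value of 2.81 ± 0.17 (adjusted p = 7.72e-21), Cd2 of 3.45 ± 0.24 (adjusted p = 1.9e-18), Cd8b of 2.49 ± 0.22 (adjusted p = 1.35e-14) and Foxp3 of 1.04 ± 0.19 (adjusted p = 5.38e-06). All 10 receptor complex genes were called here, 9 with a positive value and Cd4 with a negative one (−0.91 ± 0.15, adjusted p = 1.96e-06). Cd4 averaged 11.22 in bled and 12.17 in contralateral knees, against 12.37 and 12.41 in the nodes, so its fall was larger in the knee. Cd27, Lag3 and Tnfrsf9, which had risen in the bled knee, were not called in this test, and for Lag3 the value was 0.01. Cd27 stood at 0.35 (adjusted p = 0.0767) and was called with quantile normalization (adjusted p = 0.0351), median centring (adjusted p = 0.0497) or dim probe sets left out (adjusted p = 0.0444).

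Even in the bled knee most T cell genes stayed far below their level in the nodes. Cd3e averaged 7.33 ± 0.30 in bled knees and 10.31 ± 0.26 in bled nodes (SD, n = 11 each), and Cd3g 6.90 ± 0.36 and 10.43 ± 0.23. Cd2 came nearer, at 9.23 ± 0.68 in bled knees and 10.50 ± 0.22 in bled nodes. The order was the other way round for Havcr2, at 7.78 ± 0.46 in bled knees and 5.27 ± 0.23 in bled nodes, with no overlap between them. Apart from Havcr2, only Ifng and Il17a had a higher mean in bled knees than in bled nodes, by 0.04 and 0.13. Joint normalization of the tissues, on which these levels depend, was not stated.

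The 11 bled knees differed among themselves. K5 read the highest of the group in 20 of the 38 genes and K2 the lowest in 11. How often these knees were highest or lowest over all probe sets was not counted. Correlation with Cd3e over the 11 bled knees was computed for the other 37 genes, with permutation p-values adjusted over the 37. It passed for 14 genes by Pearson's r and for 1, Ctla4, by Spearman's rho as well. The share of all probe sets that passes was not computed, so these counts are not read as particular to T cell genes. The Ctla4 mean in bled knees, 5.57, lay below the median of every array. For Ctla4, r was 0.82 (permutation adjusted p = 0.01) and rho 0.86 (permutation adjusted p = 0.0444), and r was 0.81 without K4 and K5, the 2 knees farthest from the Cd3e median. Tcf7 had r = 0.89 and rho = 0.72 (permutation adjusted p = 0.01 and 0.0879), Cd3g r = 0.87 and rho = 0.79 (0.01 and 0.0635) and Zap70 r = 0.86 and rho = 0.65 (0.01 and 0.123). Without K4 and K5 their r was 0.62, 0.60 and 0.63. K4 and K5 had Cd3e values of 7.86 and 7.80, against 6.89 to 7.44 in the other 9 bled knees. Leaving them out narrows the Cd3e range, and r over the 14 genes then ran from 0.19 for Lat to 0.81 for Ctla4. Of the genes with the largest increases, Cd2 had r = −0.20 and rho = −0.18 with Cd3e (permutation adjusted p = 0.675 and 0.682), and Cd8b had r = 0.37 and rho = 0.39 (0.388 and 0.422). Cd8a, Havcr2 and Cd4 did not pass either, with r of 0.13, 0.17 and −0.06 and rho of 0.22, 0.31 and −0.06 (permutation adjusted p from 0.517 to 0.89).

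The wider T cell programme was read from lists of genes of known function, drawn up with earlier results of these data known, and is read against the 19.5% of all probe sets higher and 15.2% lower in this comparison. Of 21 other T cell signalling genes, 16 rose and 2 fell in the bled against the contralateral knee (median 0.73, lowest −0.93). The largest differences were those of the exchange factor gene Vav1 (1.84), the adaptor gene Fyb1 (1.83) and the phosphatase gene Ptprc (1.76). Other leukocytes use all of these as well. Of 16 other T cell transcription factors 7 rose and 5 fell (median 0.17, lowest −1.07). Runx3, which cytotoxic T cells need, had the largest difference, 2.77 ± 0.12. Its mean lay below the median of every array in contralateral and sham knees. Batf, an AP-1 partner, stood at 1.33 and Ikzf1, a factor of lymphoid development, at 1.10. Of 5 genes of T cell homing and adhesion 2 rose and 2 fell (median −0.12). Cd44 stood at 1.53, the lymph node homing receptor Ccr7 at 1.23 and Klf2, which keeps T cells circulating, at −0.86. Of 18 genes of ligands of the receptors described here, 5 rose and 3 fell (median 0.10), with Cd80, which binds CD28 and CTLA-4, at 2.79 ± 0.12, Cxcl9, a ligand of CXCR3, at −1.66 ± 0.17, and Pvr, which binds CD96, at 0.94. These ligand counts lie near the shares over all probe sets. In the nodes Cxcl9 was higher by 0.72 ± 0.19 in bled and by 0.83 ± 0.19 in contralateral nodes against sham (adjusted p = 0.0259 and 0.0108). Of 9 cytokines that steer T cell subsets 4 rose and 1 fell (median 0.08, lowest −0.99), with Il6 at 5.75, Il1b at 3.19 and Il18 at 1.82.

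Genes of other cell types were also called in the bled against the contralateral knee, where 19.5% of all probe sets were higher and 15.2% lower. Of 12 macrophage and monocyte markers 9 rose and 1 fell (median 0.86), of 9 neutrophil markers 8 rose and 1 fell (2.59), and of 11 cell cycle genes all rose (2.20). Itgam (2.33), Fcgr1a (1.98) and Spi1 (1.46) led the macrophage list, S100a8 (3.78), S100a9 (3.45) and Csf3r (3.19) the neutrophil list, and Rrm2 (3.27), Mki67 (2.78) and Mcm5 (2.71) the cell cycle list. Of 8 B cell markers 3 rose and none fell (0.25), with Cd22 at 1.14, Bank1 at 0.67 and Blk at 0.33. Of 8 NK cell markers 3 rose and none fell (0.15), with Klrk1 at 1.05, Klrc1 at 0.57 and Ncr1 at 0.30. The B cell markers averaged 5.88 to 6.44 in bled knees, 5.55 to 6.19 in contralateral knees and 5.28 to 5.85 in sham knees, with Ms4a1, Cr2 and Bank1 below every array median in the bled group. The NK cell markers averaged 5.21 to 5.72 in bled knees, 5.06 to 5.50 in contralateral knees and 4.75 to 5.20 in sham knees, with Ncr1, Klrb1, Klrd1 and Gzmb below every array median in the bled group. Macrophage and monocyte markers averaged 10.22 to 10.91 in bled knees, 9.48 to 10.01 in contralateral knees and 9.04 to 9.66 in sham knees. All 10 adipocyte genes fell (median −2.27), led by Lep (−3.54), Pck1 (−3.28) and Cidec (−3.19), and their mean ranged from 8.14 to 9.65 in bled knees, 10.92 to 11.66 in contralateral knees and 10.87 to 11.51 in sham knees. Of 7 skeletal muscle genes only Pygm was called (−2.09), and their mean ranged from 6.0 to 12.1 in bled knees, 6.2 to 12.5 in contralateral knees and 6.4 to 12.6 in sham knees. The part of these cells in the values of Cd2, Cd8a, Cd8b, Havcr2 and the other T cell genes was not tested. With the muscle mean as a covariate 27 of the 38 genes were called in place of 29, without Lag3 and Tnfrsf9.

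**Figure D5:**
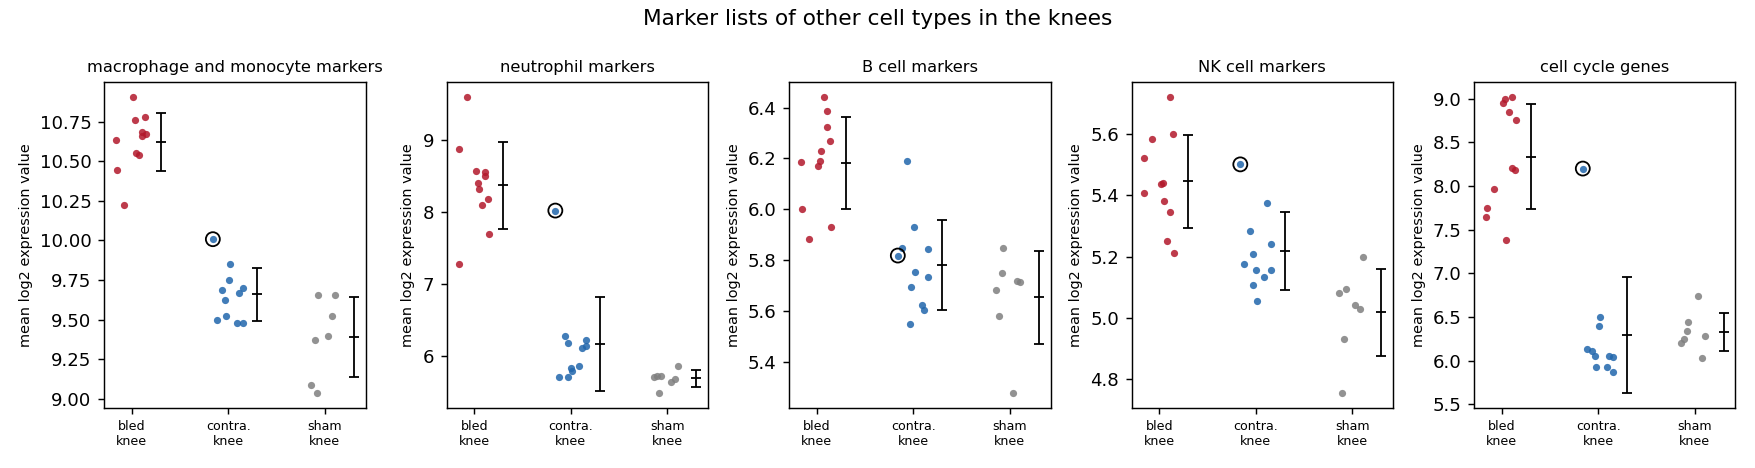
Mean log2 expression value (y axis) of the marker lists of other cell types in bled, contralateral and sham knees; points are arrays, bars the mean and SD, and the ring marks the contralateral knee of rat K10. All bled knees lie above the contralateral knees for the macrophage list, and for the neutrophil and cell cycle lists K10 reads 8.02 and 8.20, inside the bled range.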

How the data were processed

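The deposited values are log2 expression values, made by the authors with RMA. The program was Affymetrix Expression Console (version 1.4.46), as the submitters' processing notes say. They run from 1.62 to 14.03 with 2 decimals over 36685 probe sets and 60 arrays. RMA options, processing batches and whether both tissues were normalized together are not given in the sources used here. Precision is limited by the number of arrays. No label says more about batches, and none was tested.

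Symbols came from the platform annotation, in which 18511 of 19086 listed probe sets have 1 symbol and 575 have several. Themis, Il2rb and Icos are not analysed here. The genes and all gene lists were chosen with earlier results of these data known. Full values are given, within each role, for up to 4 called genes with the largest difference between bled and contralateral knees, for genes called in a node comparison or between contralateral and sham knees, and for Cd3e, Foxp3, Ifng and Il17a. Of the other lists up to 3 called genes are named. Other genes with values near a threshold were named after those values were seen.

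All 36685 probe sets were fitted with limma 3.58.1 (lmFit and eBayes) in R 4.3.3 with data.table (version 1.17.8), in 1 model of 3 groups for 29 knees, 1 for 31 nodes, and 1 of 6 groups for comparisons between tissues. P-values were adjusted by Benjamini-Hochberg over all probe sets, and adjusted p under 0.05 was called. The code was tested on simulated data. Correlations used 100000 permutations, two-sided. Summaries and plots used Python 3.11.15, numpy 2.4.6, pandas 2.3.3, scipy 1.17.1 and matplotlib 3.10.9.

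The labels give each bled rat's number on both of its sides, which pairs them. The correlation of the 2 sides' deviations from their group means was −0.10 to 0.21 over the 11 rats in the knee and 0.12 to 0.32 in the node. The fits reported have no block, and rat as a random block (29 genes called between bled and contralateral knees) or as a fixed block (29) was an alternative. Other alternatives were quantile normalization, median centring, leaving out dim probe sets, a trend with robust prior, array weights, muscle or adipocyte means as covariates, only the groups compared, and leaving out arrays.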

Additional observations from a re-analysis of the deposited data

Results flagged for a closer look

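In 26 genes the difference between the bled and contralateral side was called different between knee and node. The knee minus node values of the receptor complex genes were 0.70 for Cd3d, 0.90 for Cd3e, 1.86 for Cd3g, 0.84 for Cd247, −0.91 for Cd4, 1.99 for Cd8a, 2.49 for Cd8b, 0.95 for Lck, 0.39 for Lat and 0.61 for Zap70. Those of the accessory receptors were 3.45 for Cd2, 0.75 for Cd5, 0.54 for Cd6, 0.87 for Cd7 and 0.88 for Cd28. Those of the transcription factors were 0.75 for Bcl11b, 0.75 for Lef1 and 1.04 for Foxp3. The cytokine receptor genes had 0.57 for Il2ra and 1.55 for Il7r. The activation and checkpoint receptors had 1.10 for Ctla4, 2.81 for Havcr2, 0.61 for Cd69 and 1.36 for Cd40lg, and the homing receptors 0.66 for Cxcr3 and 1.19 for Cxcr6.

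Single sham arrays lay far from the rest of their group by Dixon's test in 9 of 76 checks (38 genes in each of 2 sham groups). Chance gives about 1 in 20 for a single check. These checks share the same arrays and are not independent, and 5 of the 9 came from the sham node of C9. The share over all probe sets is not given here, so the count is not read as particular to T cell genes. The sham node of C9 was the lowest for Cd4 (11.41), Il7r (9.68), Ctla4 (5.84) and Cxcr6 (6.24) and the highest for Lat (9.36). The sham knee of C9 was the lowest for Cd8a (5.11). The sham knee of C2 was the highest for Cd28 (5.46) and Cd69 (5.71), and that of C5 was the highest for Tbx21 (5.98). Groups of 7 and 9 arrays were checked in this way, and those of 11 were not.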

How the results depend on the processing

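Of 1083 values of single genes under alternatives, 1062 kept their direction and their side of the threshold, 19 lost a call and 2 changed sign. Beyond these, 17 calls were gained: Cd7 between contralateral and sham knees, Cd96 between bled and sham knees (quantile normalization, adjusted p = 0.0206; median centring, 0.0204), Cxcr3 between bled and sham nodes (dim probe sets left out, 0.0448), Cd27 between tissues, and Il17a and Il2 between sham tissues. Il17a between bled and contralateral knees turned positive with each array centred on its median (0.016) and with the muscle mean as a covariate (0.021), uncalled in both. Between contralateral and sham knees 2 genes were called, Cd8a and Cd7, in place of 1, with a replicate block (rat as a random block), quantile normalization, median centring, dim probe sets left out, a trend with robust prior and the muscle covariate. The fits that left out 1 array gave 1 to 2 genes there, 28 to 29 between bled and contralateral knees, 27 to 29 between bled and sham knees and 0 between the sides in the node. Against sham nodes they gave 2 to 3 genes for bled and 1 to 3 for contralateral nodes. Array weights left 1 gene, Ctla4, between contralateral and sham nodes. Without C2 and C9, or with the adipocyte covariate, 0 genes were called in bled and 0 in contralateral nodes, while with the covariate Ctla4 stood at 0.40 in both and Lag3 at 0.49 in bled nodes. With the rat as a block, no other call in the comparisons of bled with contralateral samples changed: the block gave 29 genes in the knee and 0 in the node. With dim probe sets left out, which was done separately for knees and nodes, 25 of the 38 genes remained measured in the knee fits. The causes were not tested. Genes near background, the 3 cytokine genes above all, may have changes too small for these arrays to show.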
